A study of Homo sapiens with 9 samples.

Results

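The libraries described here were made from 1 human cell line with reverse-transcription primers that differ only in the number of T at their 3′ end. They were prepared by CLT-seq, in which an adaptor-flanked oligo(dT) primer starts cDNA synthesis and a second adaptor is ligated to the cDNA. The series holds 9 libraries, and the members were the 3 HEK293T libraries with unanchored primers and gene counts: T12 (replicate 1, 12 T), T18 (18 T) and T30 (30 T). HEK293T, a transformed line of human embryonic kidney origin, is given as wild type (WT) in the labels and was grown in high-glucose DMEM with 10% serum (FBS). The labels name no treatment of the cells for any of the libraries used. Total RNA was taken with TRIzol and reverse transcribed at 37 °C for 30 min, and the labels give 400 ng of RNA for the assay and 500 ng for the reaction. The HEK293T libraries made with 18 T and an anchor (T18V, T18VN and T18VNN, 1 each) are set beside the 3 members where they show a difference. The series also lists a replicate 2 of HEK293T with T12, for which no gene counts were at hand. Each primer had 1 HEK293T library with gene counts, so no length had replicate counts, and the labels name no batch or date.

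An oligo(dT) primer anneals to runs of A. Most messenger RNAs and many long noncoding RNAs end in a poly(A) tail, whereas mature small nuclear, small nucleolar and Y RNAs do not carry a long one. Runs of A inside a transcript can be primed too, and a longer T run needs a longer or purer A run to pair along its whole length. An anchor base that is not T holds the primer at the start of the tail.

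The primers are shown first because the length of the T run is the only difference the labels give between the libraries. The adaptor is in lower case and the T run in capitals.
T12: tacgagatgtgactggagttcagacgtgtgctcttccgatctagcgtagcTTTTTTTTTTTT
T18: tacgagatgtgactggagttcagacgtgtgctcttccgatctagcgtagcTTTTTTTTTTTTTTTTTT
T30: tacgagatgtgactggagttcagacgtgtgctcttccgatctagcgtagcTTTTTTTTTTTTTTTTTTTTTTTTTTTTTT

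The Y RNA RNY1, chosen after its values were seen, is shown as an RNA without a long run of A. It is from GENCODE release 29, with U written as T and its longest run of A, 2 bases, in capitals.
RNY1: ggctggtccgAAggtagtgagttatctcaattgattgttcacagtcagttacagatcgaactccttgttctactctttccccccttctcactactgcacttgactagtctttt

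The libraries held 18918138 reads in T12, 25578543 in T18 and 18972506 in T30. Counts on the transcript entry kept for each gene, here called gene reads, came to 17.3%, 20.3% and 11.7% of these. The counts are not of whole gene spans, so reads elsewhere in a gene are left out. The gene reads numbered 3266638, 5201697 and 2216467, so a floor of 3 reads stood at 0.918, 0.577 and 1.35 CPM (counts scaled to 1000000 gene reads). Drawn down to 2216467 gene reads each, the libraries showed 10825, 11224 and 10750 genes with at least 5 reads. The cell line label was checked on marker genes. Of 9 HEK293T markers 6 passed 20 reads, among them the neurofilament gene NEFM with 4502, 5902 and 2007 reads. SOX11 had 0, 1 and 7 reads, and MAGEA4 and PEG10 had none. All 10 A549 markers had no reads in T12 and T18, and in T30 only AKR1C2 had any, 6 reads. The gene with most reads was EMD, which encodes the nuclear envelope protein emerin, in T12 (1.88% of gene reads) and T30 (2.06%). In T18 it was ZNF557, with 7.20%.

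Gene levels moved in every direction between the lengths, and genes ordered by length were a minority. Levels are CPM with TMM scaling (a correction for library composition), and differences are on log2(CPM + 1). A minimum of 20 reads in the highest of the 3 libraries left 10772 genes, of which 2178 (20.2%) were ordered T12 below T18 below T30 and 2368 (22%) in the opposite order. With a T30 level at least 2-fold from T12 as well, 1203 genes (11.2%) were ordered upward and 1395 (13%) downward. When both steps had to be at least 0.5, or 1.41-fold, 548 genes (5.09%) were graded upward and 662 (6.15%) downward. These shares are the background for the counts of ordered or graded members below. For counts of members higher or lower in T30 than in T12, the background is 5294 genes higher and 5417 lower of the 10772. The genes nearest this limit had smaller steps of 0.503 (LSM10, inside) and 0.498 (SLC6A17, outside) upward. Downward they had 0.5002 (HDAC8, inside) and 0.499 (ITPKC, outside).

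The split between directions rests on the scaling. The median difference of T30 from T12 over all genes was -0.01, and -0.47 when CPM was taken over the whole library instead of over gene reads. With that scaling 2847 genes were higher in T30 than in T12 and 7864 lower. The genes graded at both steps then numbered 64 upward and 587 downward, and those ordered with a 2-fold difference 245 and 1901. All directions below are relative to the bulk of genes. Spread between any pair of libraries was wide: at least 2-fold differences separated T12 from T18 in 29.3% of genes, T18 from T30 in 28.3% and T12 from T30 in 36.9%. The 3 anchored libraries, which share 18 T, differed from each other in 21.2% to 26.7% of genes.

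A trend over length was also fitted with edgeR's quasi-likelihood test to all 6 HEK293T libraries, with the anchor as a covariate and log2 of the number of T as the trend. The spread it uses is between primers and not between cultures, with 3 residual degrees of freedom. Of 11723 genes 1 passed an adjusted p of 0.05 (0.00853%), and it rose with length. No gene fell with length by this edgeR test, while 1213 (10.3%) had an unadjusted p under 0.05, 582 rising and 631 falling. DESeq2 called 178 genes (1.52%), 79 rising and 99 falling, of which 61 were graded upward and 69 downward at both steps. On simulated counts the edgeR fit recovered 45% of genes changed 15.6-fold from T12 to T30 and 2% of genes changed 2.5-fold, so it finds only part of even steep gradients.

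**Figure D1:**
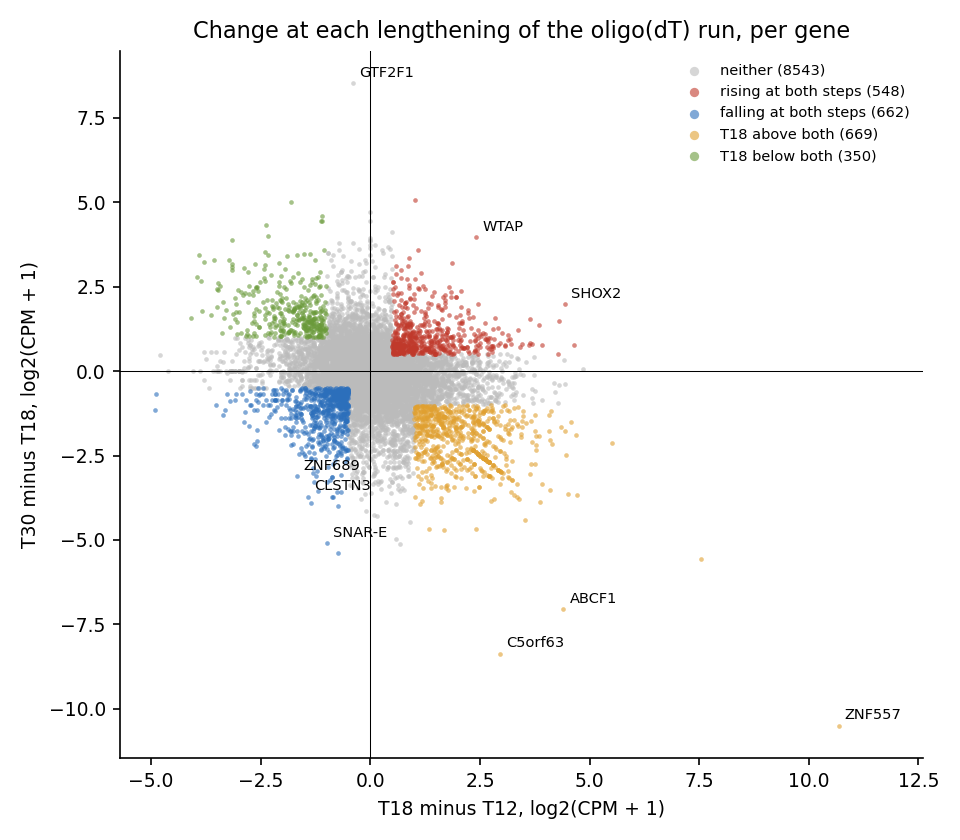
Each point is 1 of the 10772 genes; the horizontal axis is the difference of T18 from T12 and the vertical axis that of T30 from T18, both on log2(CPM + 1), 1 library per primer. The 548 genes graded upward (red) and 662 graded downward (blue) sit in opposite corners, WTAP lies far out among the first, and ZNF557, C5orf63 and ABCF1 stand apart as high in T18.

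The gene that passed was WTAP, a subunit of the complex that writes N6-methyladenosine on mRNA (chromosome 6, 160148030 to 160177351, plus strand, hg19). WTAP had 138 reads in T12, 1151 in T18 and 7449 in T30, or 43.4, 235 and 3684 CPM. The 3 anchored libraries had 48.1 to 87.3 CPM, near the T12 level and below T18. T30 was 84.8-fold above T12 (95% counting interval 71.7 to 101.1). Its fitted slope was 4.87 log2 per doubling of length (SE 0.436), with an adjusted p of 0.00565 in edgeR's test. The call was lost without T12 (adjusted p = 0.252) and without T30 (adjusted p = 0.431), where edgeR called 4 genes and 1 gene instead; over the other alternatives the adjusted p was 0.0451 or lower.

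Several genes graded upward were almost silent with 12 T. SHOX2, a homeobox transcription factor, had 2, 168 and 281 reads (0.63, 34.3 and 139 CPM), and the anchored libraries had 1.70 to 14.8 CPM. Its T30 level was 221-fold above T12, with a counting interval of 60.5 to 1832. WIPF3, a protein that binds actin regulators, had 3, 183 and 214 reads (0.944, 37.4 and 106 CPM). CENPQ, a kinetochore protein, had 1, 157 and 113 reads (0.315, 32.1 and 55.9 CPM), and its anchored levels of 28.1 to 36.3 CPM were close to T18. In all 3 the step from T12 to T18 was the larger one.

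Other upward genes had no read in T12. TBC1D32, a gene of primary cilia, had 0, 66 and 73 reads and was at least 38.2-fold higher in T30 against the floor of 3 reads. GRIK2, a kainate-type glutamate receptor subunit, had 0, 13 and 66 reads and was at least 34.6-fold higher. NRIP2, a nuclear receptor interacting protein, had 0, 90 and 54 reads, at least 28.3-fold higher. LINC01560, a noncoding gene that overlaps ZNF41, had 0, 56 and 71 reads, at least 37.2-fold higher. CHORDC1P4, a pseudogene that overlaps LPIN2 and resembles its parent gene, had 0, 5 and 134 reads. Reads of the last 2 genes are uncertain, since they could belong to the overlapping or the copied gene.

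Among the genes graded downward, several stood at high levels in T12 and nearly vanished in T30. ZNF689, a zinc finger protein of chromosome 16, stood at 1403, 442 and 49.9 CPM (4456 reads in T12 and 2164 in T18), 28.1-fold lower in T30 (23.1 to 34.6). Its anchored levels of 51.3 to 163 CPM lay between T18 and T30. CLSTN3, a synaptic adhesion protein, had 1427, 822 and 24 reads (449, 168 and 11.9 CPM), 37.8-fold lower in T30 (25.3 to 59.3). SNAR-E, a short noncoding RNA bound by NF90, had 3271, 2540 and 29 reads (1030, 519 and 14.3 CPM), 71.8-fold lower in T30 (49.9 to 107). CLSTN3 and SNAR-E had their lowest level in T30, below T12, T18 and every anchored library, whereas the T30 level of ZNF689 was close to the 51.3 CPM of T18V.

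The remaining downward genes named had no read in T30. RBM5-AS1, antisense to RBM5, counted 217, 198 and 0 reads (at least 46.04-fold lower in T30). Without strand its reads cannot be told from those of RBM5. PHF24, a PHD finger protein, went from 211 reads over 6 to 0 (at least 44.8-fold lower), so nearly all of its drop came at the first step. FAF1, a ubiquitin-binding protein, counted 118, 68 and 0 reads and was at least 25.04-fold lower in T30, against 14.8 to 19.2 CPM in the anchored libraries. FGFR1OP2 had 88, 18 and 0 reads and TMEM220, which overlaps other genes, had 86, 17 and 0. They were at least 18.7-fold and 18.2-fold lower. SNORD16 is described with the small nucleolar RNAs.

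**Figure D2:**
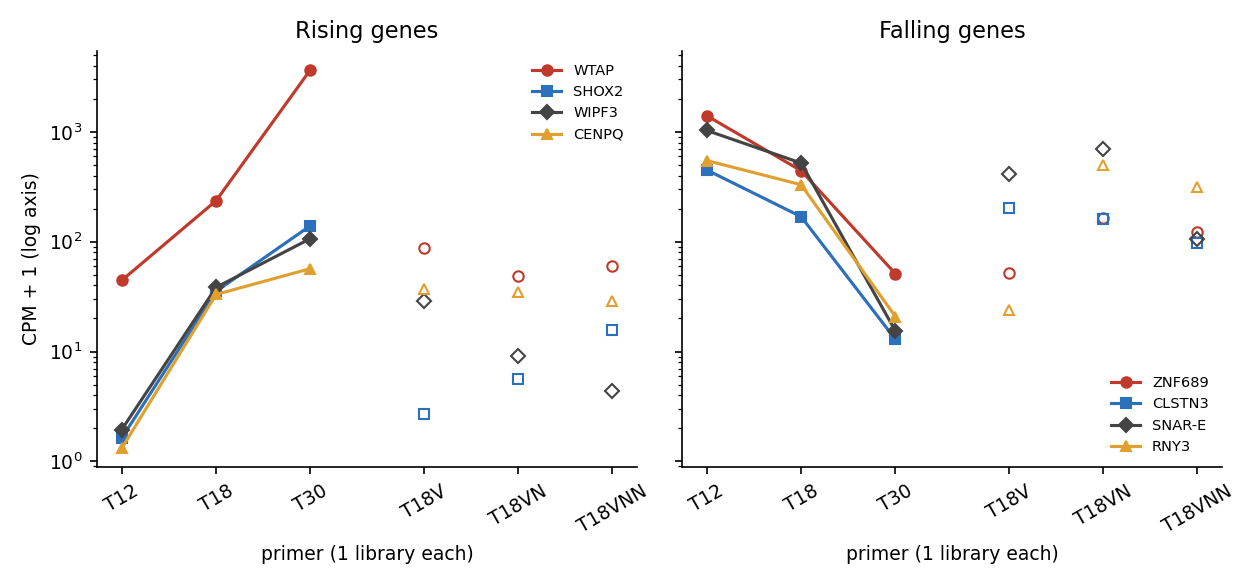
Level of 8 named genes (CPM + 1, log axis) in each HEK293T library; lines join the 3 unanchored lengths and open symbols show the anchored primers, 1 library each, with no error bars for lack of replicates. WTAP climbs from 43.4 to 3684 CPM while its anchored levels stay at 48.1 to 87.3, and ZNF689, CLSTN3 and SNAR-E end below 50 CPM in T30.

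The anchored libraries were not used to choose the graded genes, and their levels are set beside them here. The median level over T18V, T18VN and T18VNN lay between T12 and T30 for 443 of 548 upward genes (80.8%) and for 537 of 662 downward genes (81.1%). Over all 10772 genes it did so for 37.7%. Among all genes with T30 at least 2-fold above or below T12, whatever their T18 level, the share was 63.4% and 66.2%. The choice of genes with T12 and T30 far apart thus already widens the interval in which an anchored level can fall.

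Levels also peaked or dipped at the middle length. T18 was at least 2-fold above both other lengths in 669 genes (6.21%) and below both in 350 (3.25%). ZNF557, a zinc finger gene of chromosome 19 (7069471 to 7087979), had 145, 374452 and 105 reads, or 45.6, 76487 and 51.9 CPM, against 53.1 to 74.03 CPM with anchored primers. ABCF1, a translation factor read here on a haplotype sequence, had 125, 4165 and 11 reads. MS4A10 had 0, 907 and 6 reads and KIF6, a kinesin, 0, 67 and 0. The genes lowest in T18 had far fewer reads than ZNF557, ABCF1 or MS4A10, though not than KIF6. ZNF300 had 74, 3 and 33 reads, and SSH3, a cofilin phosphatase, had 141, 14 and 75. CWC22, a splicing factor, had 81, 9 and 54, and TP53INP1 had 50, 1 and 21.

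Single lengths could also stand apart at either end. T12 was at least 2-fold above both other lengths in 797 genes (7.4%) and below both in 1020 (9.47%), and T30 was above both in 609 (5.65%) and below both in 1036 (9.62%). The genes named next were picked after their values were seen. GTF2F1, a subunit of the general transcription factor TFIIF, had 98, 114 and 18168 reads, 291-fold higher in T30 than in T12 (239 to 359), with 18.2 to 42.7 CPM in the anchored libraries. MTREX, an RNA helicase of the nuclear exosome, had 1941, 1416 and 147 reads. C5orf63 had 331, 4004 and 3 reads, 104, 818 and 1.48 CPM, against 286 to 457 CPM with anchored primers. None of these 3 passed edgeR's trend test (adjusted p 0.173 to 0.721).

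Several classes of short structured RNA were lower in T30 than in T12, among them the C/D box small nucleolar RNAs, which guide 2′-O-methylation, and the spliceosomal small nuclear RNAs. Transcripts of up to 200 bases took 0.925% of gene reads in T12 (95% Wilson interval 0.914 to 0.935), 0.481% in T18 (0.475 to 0.487) and 0.424% in T30 (0.415 to 0.432). BCYRN1, described below, is in this class with 200 bases. It gave 10532 of the 30203 reads of the class in T12, 3046 of 25003 in T18 and 4601 of 9389 in T30. The share of the class is thus not a measure of the C/D and spliceosomal RNAs alone. Among genes that overlap no other gene, which leaves out BCYRN1, the shares were 0.532%, 0.359% and 0.113%. That set still holds other RNAs, among them RNY3 and SNAR-E, the latter with 3271, 2540 and 29 reads. The C/D genes that overlap no other gene had 1555, 2108 and 129 reads. The Wilson intervals cover counting error only.

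Of 296 C/D box genes 17 were measured, and 15 of them were lower in T30 than in T12. A gene is measured through its highest library, and T30 had the fewest gene reads. Genes low in T30 thus entered more readily than genes high in T30, here and in the lists of few reads below. The counts and medians of measured genes carry this lean. Together the 296 C/D genes, measured or not, had 4693, 4110 and 480 reads. The median difference over the 17 was -1.45, against -0.01 over all genes, and it was -1.04 when scaled to the library total. At both steps 6 of the 17 were graded downward and 0 upward. SNORD50A had 2358, 1300 and 170 reads (742, 266 and 84.1 CPM), 8.83-fold lower in T30 (7.55 to 10.4). SNORD16 counted 149, 3 and 0 reads and was at least 31.6-fold lower in T30. Both lie within a host gene (SNHG5 and RPL4), from whose reads their own cannot be told.

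SNORD13, which has its own promoter and overlaps no gene here, had 1444, 1963 and 81 reads (455, 401 and 40.1 CPM). It was 11.3-fold lower in T30 than in T12 (9.07 to 14.4), with T12 and T18 close together. Anchored primers gave SNORD13 269 to 850 CPM, all above T30. The summed level of the C/D genes with anchored primers was 1949 to 2634 CPM, above the 1477 of T12, the 840 of T18 and the 237 of T30. SNORD50A alone gave most of the sum in T18V: without it, an alternative chosen after seeing the data, T18V had 398 CPM, below the 735 of T12 and the 574 of T18, against 995 in T18VN, 1959 in T18VNN and 153 in T30. By edgeR 0 of 20 C/D genes passed, with 5 at an unadjusted p under 0.05, all falling, and 4 called by DESeq2 (SNORD13, SNORD16, SNORD45A and SNORD50A). The background for these list counts and those below is 10.3% of all genes at an unadjusted p under 0.05 and 1.52% called by DESeq2.

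The spliceosomal small nuclear RNAs, the RNA cores of the splicing machinery, had few reads. Of 29 genes 8 were measured, 7 of them lower in T30, with a median of -1.58 and a total of 678, 856 and 237 reads. Their summed level was 213, 175 and 117 CPM, against 115 CPM in T18V, 223 in T18VN and 1438 in T18VNN. The sum in T30 was thus close to that in T18V. RNU5F-1, which overlaps ARMH1, had the most reads with 362, 449 and 119, 1.94-fold lower in T30 than in T12 (1.57 to 2.40). RNVU1-8 had 57, 76 and 2 reads. RNU4-1 (35, 40 and 3 reads) and RNU5A-1 (35, 51 and 3) were picked after their values were seen. RNU4ATAC, which overlaps CLASP1, was the exception with 40, 79 and 68 reads. By edgeR 0 of 9 passed, with 1 at an unadjusted p under 0.05 and 0 by DESeq2.

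The 4 Y RNAs, partners of the Ro60 protein, did not follow 1 course. RNY3 had 1738, 1611 and 40 reads (547, 329 and 19.8 CPM), 27.7-fold lower in T30 (20.2 to 38.9). RNY4 had 513, 637 and 106 reads, 3.08-fold lower. RNY5 had 1182, 1451 and 580 reads (372, 296 and 287 CPM), 1.30-fold lower. RNY1 had 401, 503 and 274 reads, and 126, 103 and 136 CPM, so T30 was 1.07 times T12 with a counting interval of 0.917 to 1.25. The RNY1 printed above holds no run of A longer than 2. Anchored primers gave RNY3 22.8 to 494 CPM, a range that holds the T18 value but neither T12 nor T30. The 7 measured genes of the list that also holds 7SK, 7SL, RNase P, RNase MRP and vault RNAs had a median of 0.06. By edgeR 0 of 7 passed, with 2 at an unadjusted p under 0.05 and 0 by DESeq2.

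Other short noncoding RNAs went their own ways. The H/ACA and Cajal body RNAs, which guide pseudouridylation and modify small nuclear RNAs, had 32 measured genes of 161, 15 higher and 14 lower in T30, with a median of 0. SCARNA9, inside CEP295, had 475, 610 and 2280 reads (150, 125 and 1128 CPM), highest in T30, and anchored primers gave it 176 to 906 CPM. SNORA101B was graded upward with 2, 46 and 36 reads, and SCARNA1 and SNORA41 were graded downward with 46, 43 and 7 and with 49, 27 and 3 reads. By edgeR 0 of 38 passed, with 5 at an unadjusted p under 0.05 and 1 by DESeq2.

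The genes BCYRN1, SNAR-B1 and SNAR-B2 were picked after their values were seen. BC200 RNA, the product of BCYRN1 and a short Alu-derived RNA of the neuronal cytoplasm, had 10532, 3046 and 4601 reads (3316, 622 and 2275 CPM), highest in T12 and lowest in T18. Anchored primers gave BCYRN1 459 to 1167 CPM, below T12 and T30. It overlaps EPCAM-DT. SNAR-B1 and SNAR-B2, relatives of SNAR-E, had 631, 503 and 61.3 CPM and 287, 216 and 44.015 CPM, so all 3 were low in T30. These genes are near-identical copies, and reads could be shared among them.

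**Figure D3:**
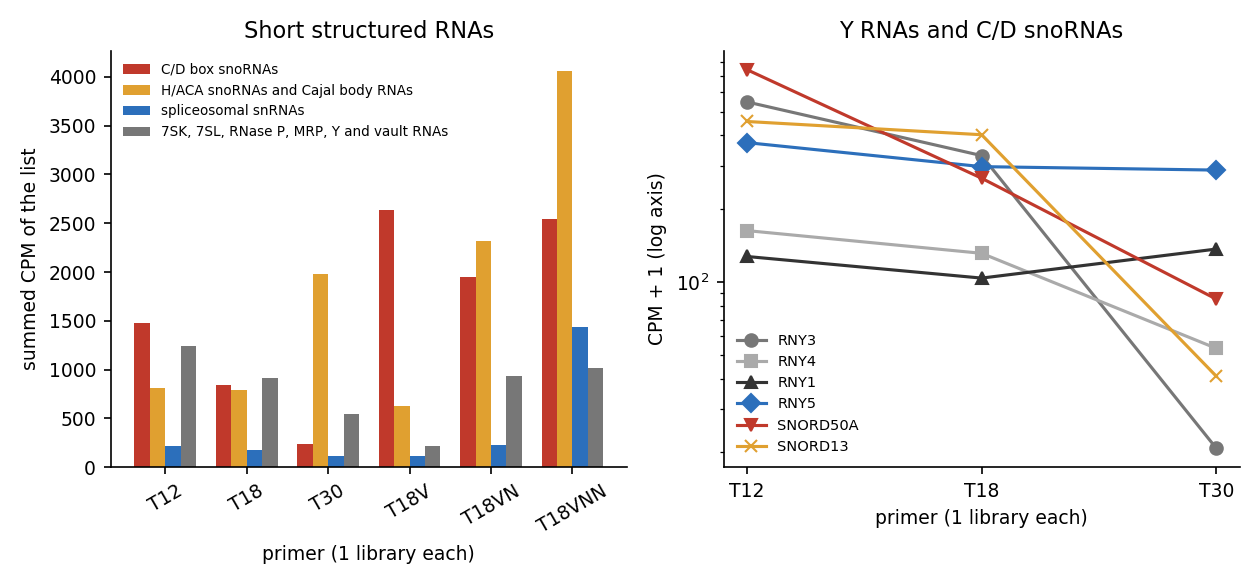
Left, summed CPM of 4 lists of short RNAs in each HEK293T library (bars, 1 library each); right, CPM + 1 of single Y RNAs and C/D box RNAs at the 3 lengths (log axis). The C/D bars go from 1477 in T12 to 237 in T30, and RNY3 and SNORD13 drop at T30 while RNY1 stays between 103 and 136 CPM.

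Transcripts with a long internal run of A were higher with the longer primers. The longest run of A was read from the GENCODE sequence of each gene without its last 60 bases, which leaves out a tail in the sequence itself, and 10655 of the 10772 genes had one. Genes with a run of at least 18 A were 509 (4.78%) of all genes, 48 of 537 (8.94%) of those graded upward and 14 of 653 (2.14%) of those graded downward. By length of the run, the median difference of T30 from T12 was -0.05 for 0 to 5 A, -0.03 for 6 to 11, 0.08 for 12 to 17, 0.33 for 18 to 29 and 0.90 for 30 or more.

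The steps differed between the classes. The 462 genes with 18 to 29 A had a median of 0.43 from T12 to T18 and 0.00 from T18 to T30. The 47 genes with 30 A or more had -0.04 at the first step and 0.75 at the second, and 35 of the 47 were higher in T30 than in T12. Of the 462 genes with 18 to 29 A, 292 (63.2%) were higher in T30 than in T12, against 47.9% of genes with runs under 12 A. Quartiles were wide (-0.41 to 1.18 for 18 to 29 A and -0.02 to 1.62 for 30 or more), so not every gene followed its class. In the anchored libraries the same classes lay below T18, with medians of -0.57 and -0.85, while genes with runs under 12 A had a median of 0.00. A run of A is a description of the transcript, and where the reads start was not tested.

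Genes with a run of 18 A or more had longer mRNAs (median 4749 against 3041 bases for runs under 12 A), a lower GC content (44.5% against 50.8%) and more reads (381 against 207 over the 3 libraries). With at least 300 reads over the 3 libraries the median for 30 A or more was 0.96 (23 genes), and 0.00 for runs under 12 A. Without overlapping genes it was 0.93 (34 genes). In mRNAs over 6000 bases the median for 18 A or more was 0.58 (172 genes) against 0.04 for runs under 12 A, in those up to 3000 bases 0.13 against -0.06. Within GC content under 45% it was 0.38 against 0.01, and at 55% or more 0.26 (52 genes) against -0.04. Scaled to the library total, all medians moved down, to 0.24 for 30 A or more and -0.49 for runs under 12 A, and that for 18 A or more turned from 0.38 to -0.17.

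The 6 genes with most reads among the 47, picked after their values were seen, differed from each other. CEBPZOS, a mitochondrial protein with a run of 48 A, had 1548, 3044 and 2380 reads (487, 622 and 1177 CPM) and overlaps another gene. ZNF302, a zinc finger gene with 49 A, had 1905, 2102 and 2264 reads (600, 429 and 1120 CPM), and only 21.3 to 55.4 CPM with anchored primers. LPAR4, a lysophosphatidic acid receptor with 31 A, had 790, 893 and 3519 reads (249, 182 and 1740 CPM) and 1.04 to 4.81 CPM with anchored primers. MAVS, the adaptor of cytosolic RNA sensing, with 42 A, had 449, 417 and 409 CPM, and WASF2, an actin regulator with 32 A, had 416, 438 and 366 CPM. IRF2BPL, with 36 A, had 419, 337 and 384 CPM. T30 was thus far above T12 in LPAR4 and slightly below it in MAVS, WASF2 and IRF2BPL. SGMS1-AS1, a long noncoding RNA with a run of 28 A and thus outside the 47, was also picked after its values were seen. It had 0, 0 and 51 reads, at least 26.7-fold higher in T30, and at most 2.08 CPM with anchored primers.

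**Figure D4:**
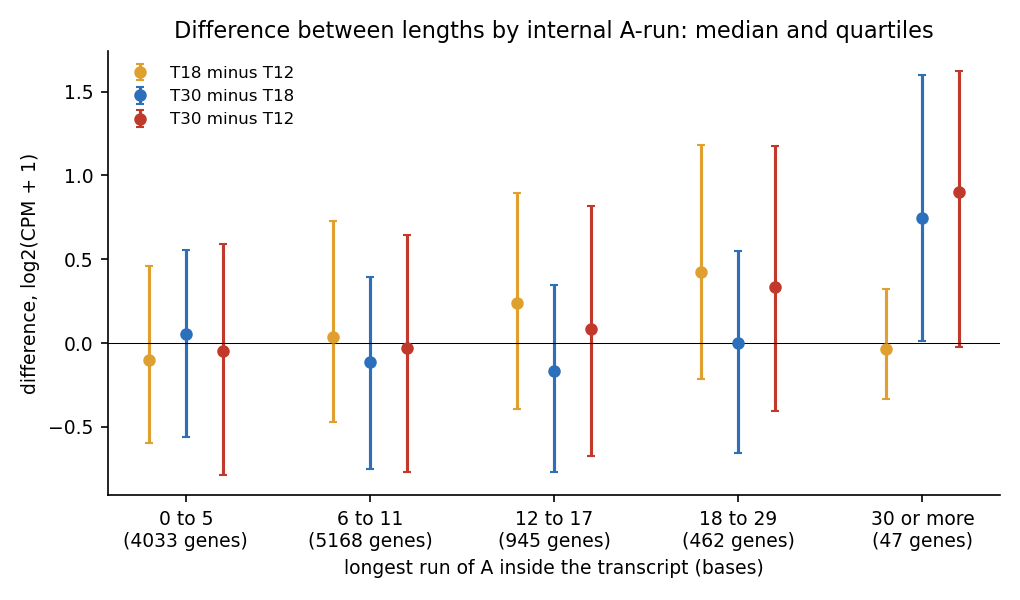
Median (point) and quartiles (bar) over genes of the difference between lengths on log2(CPM + 1), by the longest run of A inside the transcript; the number of genes stands under each class. The T18 excess over T12 is highest at 18 to 29 A (0.43), and the T30 excess over T18 appears at 30 or more (0.75).

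In shares of reads, genes with at least 18 A took more at each longer primer, and those with at least 30 A took more only in T30. Genes with a run of at least 18 A took 4.48% of gene reads in T12 (95% Wilson interval 4.46 to 4.51), 5.78% in T18 (5.76 to 5.80) and 6.19% in T30 (6.15 to 6.22), against 3.87% to 4.12% with anchored primers. Runs of 30 or more took 0.427%, 0.419% and 0.779%. Genes spanning over 500 kb took 0.536%, 0.440% and 1.03%, and this rested on overlapping loci, since without them the shares were 0.107%, 0.104% and 0.102%. RORA, a nuclear receptor in that group that overlaps other genes, had 7380, 6741 and 12547 reads (2323, 1377 and 6205 CPM) and 18.7 to 57.9 CPM with anchored primers. ZBTB20, a transcriptional repressor, had 627, 431 and 2207 CPM and likewise shares its locus. Of the 78 measured genes of that span 7 were graded upward and 5 downward, with a median of 0.07.

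The 16 reference mRNAs had a median of -0.03, close to the -0.01 of all genes, and none was graded either way or passed 2-fold in order. TUBA1B, an alpha-tubulin, had 10933, 9445 and 10367 CPM, 1.05-fold lower in T30 than in T12. TUBB, a beta-tubulin read here on a haplotype sequence, had 6130, 5758 and 7969 CPM, 1.30-fold higher. PPIA had 4897, 3992 and 4069 CPM, 1.20-fold lower. HSP90AB1, a chaperone of the heat shock list, had 7799, 7498 and 7441 CPM. The median of 80 cytosolic ribosomal protein genes was -0.16, with 2 graded upward (1 of them RPL35) and 3 downward (FAU, RPL10A and RPL27). RPL27 had 4370, 3401 and 636 reads (1376, 695 and 315 CPM). Of 75 nuclear genes of the respiratory chain 1 was graded upward (NDUFA9, with 3, 34 and 37 reads) and 4 downward, among them SDHA, the flavoprotein of succinate dehydrogenase, with 466, 345 and 85 reads.

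The 34 genes for hnRNP and SR proteins, which bind nascent RNA and direct splicing, had a median of 0.25, and 0.16 without TMM factors, and 25 of them were higher in T30. None was graded at both steps, and 5 were ordered upward with a 2-fold difference against 1 downward. HNRNPA0 had 9772, 13321 and 17691 CPM with 4364 to 14294 CPM in the anchored libraries. Scaled to the library total this median was -0.35, against -0.47 over all genes. The 45 measured transcripts of 15 kb or more, a list that also holds noncoding RNAs, had a median of 0.37 (-0.08 scaled to the library total), most of it at the first step (0.47 from T12 to T18), with 1 graded upward (ANK3) and 3 downward (among them BSN and UBR4).

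Other lists mixed both directions. In the integrated stress response DDIT4 had 206, 298 and 447 CPM and the cystine transporter gene SLC7A11 had 27.1, 89.3 and 137 CPM, both graded upward. In the same list the transcription factor gene ATF4 had 134, 92.5 and 59.8 CPM and TRIB3, one of its targets, 86.6, 60.9 and 29.7 CPM, both graded downward, and the median of the 19 genes was -0.23. Among 29 DNA replication genes, the helicase gene MCM5 (23.3, 39.4 and 73.2 CPM) and the thymidine kinase gene TK1 (31.2, 51.7 and 83.1 CPM) were graded upward. CDC6, the origin licensing factor, was graded downward (82.8, 54.9 and 28.7 CPM), and the median was 0.10. The immediate-early genes had 8 measured members and a median of 0.50, with JUNB graded upward (29.3, 43.3 and 65.8 CPM), and scaled to the library total the median was -0.12.

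The rest showed few graded genes. Of 93 chromosome 19 zinc finger genes 3 were graded upward and 8 downward, with a median of -0.08. In cholesterol synthesis 1 of 21 genes was graded upward (MVD, with 0, 26 and 22 reads) and 1 downward (MVK, with 408, 357 and 98). No gene was graded at both steps among 11 heat shock genes (median -0.40), 32 genes of poly(A) tail making and binding (0.03) and 16 abundant long noncoding RNAs (-0.15). Replication-dependent histone mRNAs end in a stem-loop and mostly carry no tail, and only 3 of 69 were measured. All 3 were higher in T30 than in T12, with a median of 1.80. Scaled to the library total the median was 0.34, with 2 higher and 1 lower. H4C3 had 71, 5216 and 492 reads (22.4, 1065 and 243 CPM), highest in T18, against 233 to 403 CPM in the anchored libraries. Over the 673 tested genes of all lists together edgeR called 0, with 76 (11.3%) at an unadjusted p under 0.05 against 10.3% of all genes, and DESeq2 called 11, 2 rising and 9 falling.

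Gene body coverage was similar in outline at the 3 lengths. The authors' coverage values divide transcripts into 100 parts, here called percentiles, beginning at the 5′ end. The last 20 percentiles held 64.7% of the coverage in T12, 59.2% in T18 and 61.98% in T30. T18V had 61.9% and T18VNN 39.9%, so the lengths did not fall in an order. At the very 3′ end they did differ: the highest point lay at percentile 97 in T12 (9.27% of coverage) and T18 (8.81%) and at percentile 99 in T30 (11.4%). The last 3 percentiles held 17.3%, 14.9% and 19.9%, against 13.96% in T18V and 6.77% in T18VNN. At the 5′ end the first percentile alone held 1.24% in T12, 0.677% in T18 and 1.45% in T30. It held 0.0872% in T18V and 1.59% in T18VNN, so both anchored values lay outside the range of the 3 lengths. In T18VNN it was not a single high point. Coverage there was 5769 at the first percentile and 5752 at the second, and the first 20 held 33.7%. In T12 the coverage was 2767 at the first percentile and 175 at the second. A smaller peak at percentile 53 was shared by these 5 libraries, and in T18VNN it lay below the coverage of the first 20 percentiles. How many transcripts stand behind these profiles is not given in the sources used here, so a peak could rest on a few genes.

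**Figure D5:**
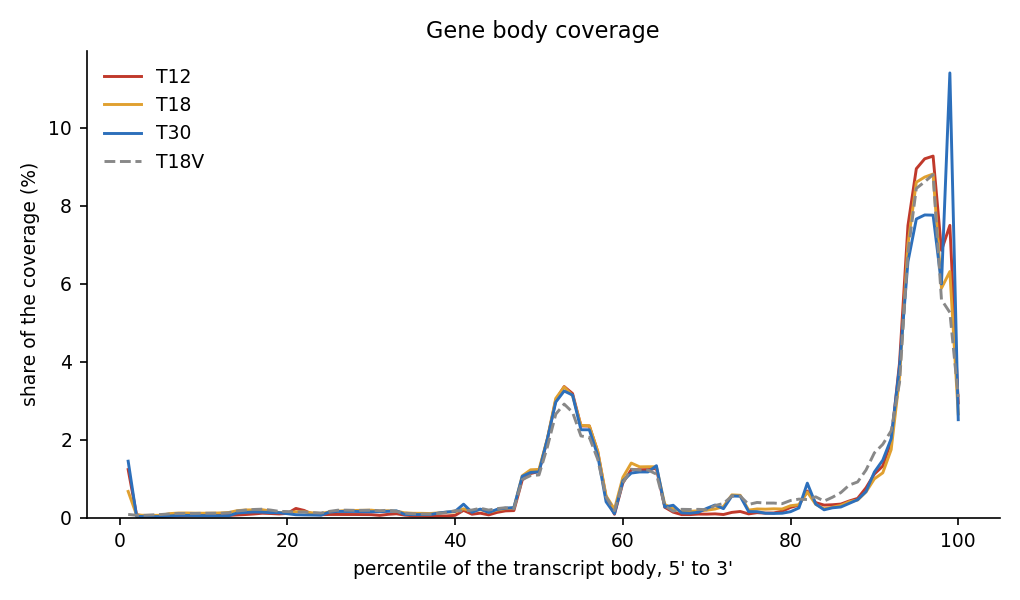
Share of the coverage (percent of each library's total) by percentile along the transcript, 5′ end at the left, in T12, T18, T30 and, dashed, T18V, 1 library each. The curves are similar in outline from percentile 2 to 90. The first percentile is lowest in T18V (0.0872%), and T30 alone has its highest point at percentile 99, with 11.4%.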

How the data were processed

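Read counts per RefSeq transcript entry were deposited by the authors, 1 table per library, in the layout of RSeQC's FPKM_count. The deposited FPM, a signal scaled to the library total, served to recover that total, and the deposited FPKM was read but not tested. Gene body coverage is a signal per percentile, deposited by the authors without the transcripts behind it. Per the submitters' processing notes FastQC 0.11.8, cutadapt 2.10, Trimmomatic 0.39, HISAT2 2.2.1 and SAMtools were used with hg19 (GRCh37). Settings, strand and the treatment of reads with several matches are not given in the sources used here. PCR reads carry no molecular identifiers, so intervals and floors cover counting error only.

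Of 61177 entries 60133 (98.3%) matched a gene symbol in the RefSeq gene table, and the entry with most reads was kept for each of 26625 genes, of which 8258 overlap another gene on either strand. Entries with the same span had different counts in 823 of 5646 groups in T18, so the counts are not of whole spans. Transcript sequences came from GENCODE 29. CPM was computed over gene reads with edgeR 4.0.16 TMM factors of 6 HEK293T libraries (T12 0.972, T18 0.941, T30 0.912), with a pseudocount of 1. The trend used filterByExpr, glmQLFTest and Benjamini-Hochberg adjustment at 0.05 in R 4.3.3, checked on simulated data. DESeq2 1.42.0, other scalings, filters, pseudocounts, transcripts and left-out libraries were alternatives. Fold intervals are exact binomial 95% intervals of the 2 libraries' reads.

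Named genes were the 10 largest rises and 10 largest falls from T12 to T30 among genes graded at both steps with at least 50 reads, the 4 furthest above and below in T18, and 3 members of most reads per list, not all of which are printed. Genes picked after their values were seen are stated as such or belong to a count of graded list members. The members, lists and rules were chosen with earlier results of these data known. TUG1, CNOT6 and RN7SL3 were not analysed here. Some genes and sequences that these rules pick are not reported here.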

Additional observations from a re-analysis of the deposited data

How the results depend on the processing

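No paired analysis was possible because each primer had 1 library with gene counts. Leaving out 1 library at a time gave 1 to 4 genes with a trend by edgeR: 4 without T12 (ZNF557, C5orf63, GTF2F1 and ABCF1), 2 without T18 (GTF2F1 and WTAP) and 1 (ZNF557) without T30. DESeq2 called 178 and no filter on low counts 218 (92 rising and 126 falling), and length on a linear scale, only T12, T18 and T30, RLE or no factors and the longest transcript each called 1, WTAP.

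Genes ordered with a 2-fold difference numbered 2598, and 1678 with at least 50 reads, 1073 with at least 100 reads and 1004 at 4-fold. Genes graded at both steps numbered 1210, and 651 over the library total, 744 with a pseudocount of 5, 715 with at least 50 and 437 with at least 100 reads. Genes highest or lowest in T18 numbered 1019, and, in alternatives chosen after seeing the data, 644 (617 and 27) over the library total, 445 with a pseudocount of 5, 525 with at least 50 and 261 with at least 100 reads. The 20 genes chosen as graded upward or downward kept the sign of their difference in all 60 values under 3 alternatives (no factors and a pseudocount of 0.5 or 5). Of the 8 genes named for T18, CWC22 went from 0.064 to -0.024 for T30 against T12 without factors. The counts of graded genes in all 21 lists stayed within 1.5 times without factors.

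Without overlapping genes the shares of genes with a run of 18 A or more were 4.58% in T12 and 6.797% in T30, those of transcripts up to 200 bases 0.532%, 0.359% and 0.113%, and those of spans over 500 kb 0.107%, 0.104% and 0.102% (T12, T18, T30). Without the gene with most reads the 3 kinds of share were 4.57%, 6.23% and 6.32%, then 0.942%, 0.518% and 0.433%, then 0.546%, 0.475% and 1.05%. Coverage in the last 10 percentiles was 59.5%, 54.5% and 57.1%, in the last 50 percentiles 91.4%, 88.8% and 89.5%, and its 50% point lay at percentile 94, 93 and 93. Other causes of these shifts were not tested. Depth limits genes under the floor of 3 reads, which stands highest in T30 (1.35 CPM).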
